A study of Mus musculus with 8 samples.

Results

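Cells of newborn mouse parietal bone that carried transcripts of suture and cranial mesenchyme genes together with Runx2, but little collagen and little Sp7 or Ibsp, were examined here. They were selected one by one from the unique molecular identifier (UMI) counts, with no clustering. A cell was taken if 500 genes or more were detected in it and mitochondrial genes held under 10% of its UMIs, and if it had at least 3 of the 6 genes Twist1, Six2, Prrx1, Msx1, Gli1 and Axin2 detected, at least 1 UMI of Runx2, Col1a1 under 0.75% and Col2a1 under 1% of its UMIs, fewer than 2 UMIs each of Sp7 and Ibsp, and 0 UMIs of Ptprc and Pecam1. This gave 2054 cells of the 46420 that passed quality control (4.42%), 925 in wild type (WT) and 1129 in heterozygous (Het) libraries. They are called Prrx1+Runx2+ cells below, since Runx2 was required and Prrx1 was detected in at least 96.5% of them in every library. Parietal bone cells of pups at postnatal day 4 to 5 were sequenced as single cells in droplets, in 4 WT and 4 Het libraries of strain B6.129(FVB)-Col1a2tm1Mcbr/J, in which Het pups carry 1 allele of Col1a2 with a glycine substitution that causes misfolding of type I procollagen. Cells of pups with the same genotype were pooled in each library, and libraries served as replicates. WT libraries S1 and S2 and Het libraries S3 and S4 were made with kit version 3, and WT libraries S5 and S6 and Het libraries S7 and S8 with kit version 3.1. UMI counts per gene do not show the mutant allele, so the genotype rests on the labels.

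Sutures are fibrous joints between the flat bones of the skull. Their mesenchyme holds Gli1-, Axin2- and Prrx1-expressing cells that can give rise to osteoblasts, with Runx2 acting early in this commitment, before Sp7, and with Twist1 among the transcription factors that keep sutures open. Osteoblasts then make large amounts of type I collagen, Ibsp and Bglap. Cells of the cartilage lineage use Sox9 and make collagens of types II, IX and XI instead.

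The Prrx1+Runx2+ cells had a median depth of 5755 (Het S4) to 14777 (WT S6) UMIs per library. No barcode was shared between libraries among these cells, while 2 to 61 barcodes were shared by pairs of libraries among all barcodes. The cells were unevenly spread, 241 coming from libraries of kit version 3 and 1813 from those of kit version 3.1. Kit version changed together with the release of the counting software, so the cause of any difference between the 2 sets of libraries cannot be told apart. WT S2 had 24 of these cells and WT S1 had 55, and results that compare genotypes within kit version 3 rest on them. Levels are sums over the cells of a library, so a lower level can be fewer expressing cells or less RNA per cell, and these cannot be told apart.

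Cartilage transcripts were present in most of the cells, beside suture genes. The 14 cartilage genes counted here (such as Acan, Sox9, Col9a1 and Matn1, none of them in the selection) made up 0.307% (WT S2) to 1.77% (Het S8) of the UMIs of the Prrx1+Runx2+ cells. In haematopoietic-like cells of the same libraries, which should lack these transcripts, the summed level measured the same way was 0.0223% to 0.695%, below the Prrx1+Runx2+ cells in each library, and the median cell had from 0 (WT S1 and S2) to 0.111% (WT S5). Matn1 was below its level in haematopoietic-like cells in S6 (453 CPM against 511 CPM), S7 (440 CPM against 725 CPM) and S8 (620 CPM against 920 CPM), where CPM are UMIs of the gene scaled to the total of the cells, whereas Acan, Sox9, Col9a1 and Col9a2 were above theirs in all 8 libraries. Col9a2, a chain of the cartilage collagen of type IX, was at 0.0528% (S1), 0.0615% (S2), 0.189% (S5) and 0.170% (S6) of UMIs in WT and at 0.165% (S3), 0.112% (S4), 0.199% (S7) and 0.225% (S8) in Het. Both WT libraries of kit version 3 were lowest. Of the 2054 cells, 1883 (91.7%) had at least 0.25% of their UMIs in cartilage genes, a limit set after seeing the data, with 61 cells within 0.1 percentage points of it. The share of such cartilage-rich cells was 25.5% and 33.3% in WT S1 and S2, 75.3% and 70.1% in Het S3 and S4, and between 95.5% and 96.8% in every library of kit version 3.1. The 16 suture genes that the selection did not use had a median of 0.254% of UMIs over the libraries in cartilage-rich cells and 0.240% in the others, beside 0.184% in fibroblast-like cells, 0.108% in cells with Col2a1 at or above 1% and 0.174% in haematopoietic-like cells. Over all the Prrx1+Runx2+ cells these suture genes were above the haematopoietic-like level in 6 libraries and below it in Het S7 (0.253% against 0.334%) and S8 (0.241% against 0.268%). The cells are called by their rule here and given no cell type name.

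**Figure D1:**
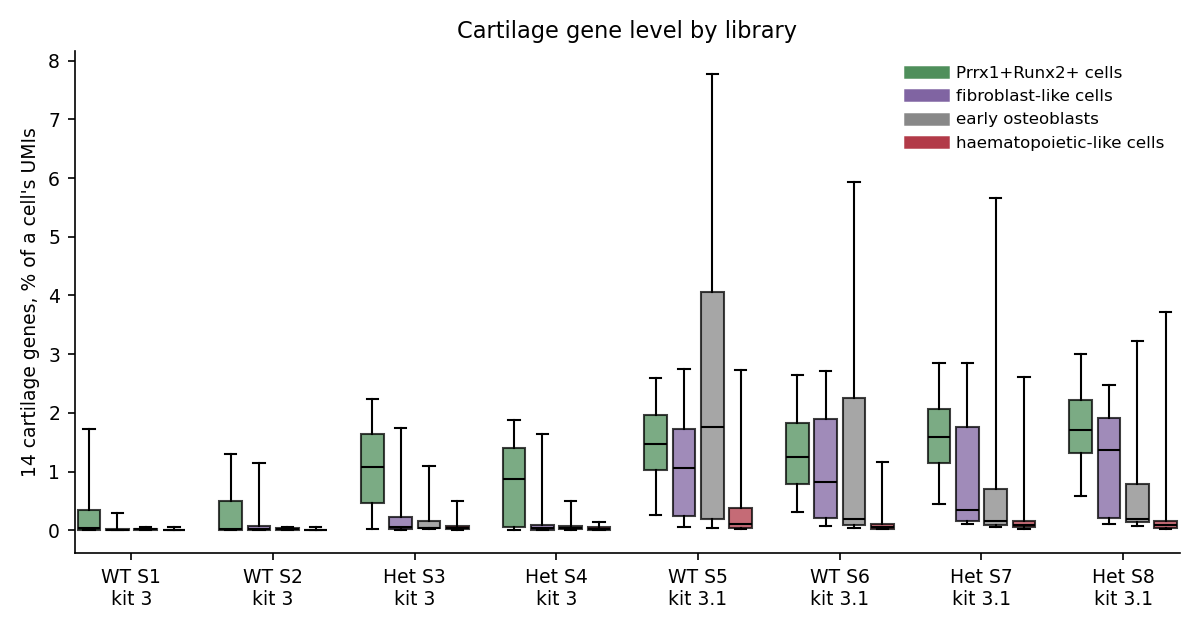
Cartilage gene level (14 genes, percent of a cell's UMIs, vertical axis) in Prrx1+Runx2+ cells, fibroblast-like cells, early osteoblasts and haematopoietic-like cells of each library (horizontal axis). Boxes span the middle of the cells (quartiles), the line is the median and whiskers reach the 5th and 95th percentiles. Medians of the Prrx1+Runx2+ cells lie between 0.874 and 1.71 in Het and kit version 3.1 libraries and at 0.0356 and 0.0242 in WT S1 and S2.

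The cartilage-rich cells shared several leading genes between the kit versions, as a description of what sets them apart from the other cells of their libraries. Clu, a secreted chaperone, was at 926 CPM in kit version 3, where the other cells had 63.3. Htra1, a secreted protease, was at 1806 CPM against 220 CPM. Mgp, an inhibitor of mineralization, was at 26115 CPM against 3860 CPM and was among the 15 leading genes in kit version 3 only. In kit version 3.1 Clu was at 1133 CPM against 193 CPM and Htra1 at 1775 CPM against 387 CPM. Sox4, Scara3, Ptgds and Tgfb2 were also among the 15 leading genes in both. The 171 other cells were not of one kind. In kit version 3, 101 cells had Mmp13, a collagenase, at 1327 CPM against 169 CPM in the other cells. Summed over the same libraries, Cxcl12 was at 600 CPM against 114 CPM and Alpl, the bone alkaline phosphatase, at 403 CPM against 84.9 CPM. Cxcl12 in the Prrx1+Runx2+ cells came mostly from WT S1 and S2, as given by library below. In kit version 3.1, 70 cells were led by pericyte genes, with Rgs5 at 3668 CPM against 178 CPM and Notch3 at 722 CPM against 43.2 CPM, and 48 of these 70 had at least 3 detected pericyte and smooth muscle markers, as had 44 of the 101 cells of kit version 3. These are ratios between groups chosen from the same cells and carry no test.

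Within the selection, the marker genes were not detected equally. Among the 2054 cells, 1259 had exactly 3 of the 6 markers and 15 had all 6. Twist1 was detected in 77.3% (Het S8) to 88.2% (Het S3) of the cells, and Six2 in 37.5% (WT S2) to 54.5% (WT S1) of the cells of kit version 3 and in 83.7% (WT S5) to 91.0% (WT S6) of those of kit version 3.1. Gli1, a hedgehog target, was detected in 14.5% (WT S5) to 34.1% (Het S3), and Axin2, a Wnt target, in 21.8% (WT S1) to 34.5% (Het S7). In haematopoietic-like cells, whose UMIs of these genes give the background of free RNA, Twist1 was detected in 2.41% (WT S2) to 15.5% (Het S8) and Six2 in 0.774% (WT S2) to 17.9% (Het S7). Prrx1 and Runx2, which name the cells, were detected in 3.92% (WT S2) to 34.1% (Het S7) and in 7.21% (Het S4) to 36.1% (WT S5) of the haematopoietic-like cells. The median depth of the haematopoietic-like cells was 3478 to 18100 UMIs. Cells with exactly 2 markers, just outside the limit, numbered 1199, and those with Col1a1 from 0.5% to 0.75% and from 0.75% to 1% of UMIs numbered 160 each. Cells with Col2a1 from 0.75% to 1% numbered 263, and those up to 0.25 points above 1% that met every other condition numbered 236.

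Erg, an ETS transcription factor and one of 16 suture genes that the selection did not use, differed between kit versions. It was at 0.000167% and 0.000535% of UMIs in WT S1 and S2 and 0.00214% and 0.000813% in Het S3 and S4, and at 0.0152%, 0.0143%, 0.0184% and 0.0206% in WT S5, WT S6, Het S7 and Het S8. In WT S1 and S2 it was below its haematopoietic-like level (1.67 CPM against 8.64 CPM and 5.34 CPM against 9.57 CPM). The 2 sets did not overlap, and the same was true of Fgfr2, at 0.0128% to 0.0160% in kit version 3 and 0.0404% to 0.0455% in kit version 3.1. Alpl ran the other way, from 0.00843% to 0.0418% in kit version 3 and 0.00121% to 0.00252% in kit version 3.1, where it was below its haematopoietic-like level in S5 (23.9 CPM against 44.2 CPM). In the low-cartilage cells alone, whose share also differed between kit versions, Alpl was at 230 to 541 CPM in kit version 3 and at 183 to 240 CPM in kit version 3.1, which overlap. The part of the cell mixture was not tested. Spp1, an early matrix protein of bone, was at 0.964% and 1.49% in WT S1 and S2 and at 0.0149% to 0.0579% in the other 6 libraries. In low-cartilage cells Spp1 was at 12434 (S1), 25615 (S2), 4075 (S5) and 11144 (S6) CPM in WT and at 677 (S3), 1223 (S4), 3431 (S7) and 452 (S8) CPM in Het, and over all the Prrx1+Runx2+ cells it was below its haematopoietic-like level in S5 and S8.

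The share of Prrx1+Runx2+ cells among cells that passed quality control was 1.15% (S1), 0.505% (S2), 2.96% (S5) and 10.6% (S6) in WT, and 2.50% (S3), 1.03% (S4), 9.93% (S7) and 9.75% (S8) in Het. The means were 3.81% ± 4.65 (SD, n = 4) in WT and 5.80% ± 4.70 (SD, n = 4) in Het. The difference of 1.99 percentage points was smaller than the spread between libraries (p = 0.686, two-sided exact permutation test over 70 assignments, smallest possible 0.0286). The assignments crossed the kit versions, so that spread includes the gap between them. Kit version 3 alone gave a difference of 0.933 points and kit version 3.1 one of 3.06, where 2 libraries against 2 cannot reach the threshold. The shares of the 4 libraries of kit version 3 were all below those of kit version 3.1, 1.30% ± 0.849 against 8.31% ± 3.58 (SD, n = 4 each, exact permutation p = 0.0286, the smallest possible). Haematopoietic-like cells were 56.6% and 46.2% of the cells that passed quality control in WT S1 and S2 and 3.28% to 9.80% in the other 6 libraries. Among cells that were neither haematopoietic-like nor Col2a1-rich, the share was 7.69% ± 8.35 in WT and 13.1% ± 12.6 in Het (SD, n = 4 each, exact permutation p = 0.457), a difference of 5.44 points. In kit version 3.1 both Het libraries (20.8% and 26.8%) were above both WT libraries (7.46% and 19.5%), and in kit version 3 the groups overlapped. The selection depends on depth. When each cell was thinned to 2000 UMIs and 8703 shallower cells were left out, 136 cells still met it, and the share was 0 to 0.156% in kit version 3 and 0.467% to 0.765% in kit version 3.1. In each kit version both Het libraries were then above both WT libraries. The shares were 0.156% (S3) and 0.124% (S4) against 0.0473% (S1) and 0 (S2), and 0.765% (S7) and 0.725% (S8) against 0.467% (S5) and 0.568% (S6). They rest on 0 (S2) to 37 (S7) cells per library, and over all 8 libraries the exact permutation p was 0.486.

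**Figure D2:**
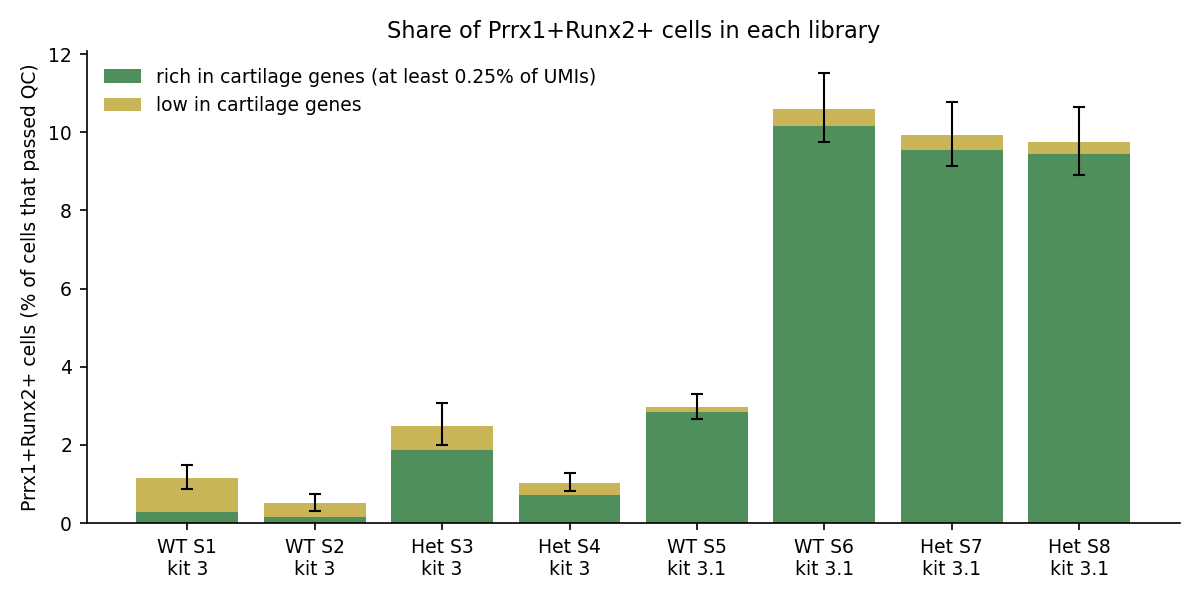
Prrx1+Runx2+ cells as a percent of cells that passed quality control (vertical axis) in each library (horizontal axis), split into cartilage-rich and other cells. Error bars are exact 95% binomial intervals of the whole share (Clopper-Pearson) and cover counting error only. The libraries of kit version 3 lie between 0.505% and 2.50% and those of kit version 3.1 between 2.96% and 10.6%.

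The first comparison asked how these cells differ from early osteoblasts, which have at least 10 UMIs of Col1a1, at least 2 UMIs in at least 2 of Runx2, Sp7 and Ibsp, and the same Col1a1 limit of 0.75%. The Prrx1+Runx2+ cells had lower osteoblast genes, fewer transcripts of cycling genes and higher transcripts of immediate early genes. The sums of 379 early osteoblasts and of the Prrx1+Runx2+ cells were compared library by library, and the genes of either selection were left out. Of 10544 genes, 23.9% were called, 12.1% higher and 11.8% lower in the Prrx1+Runx2+ cells (edgeR quasi-likelihood test with the library as a block, Benjamini-Hochberg adjusted p under 0.05), with a median log2 difference of 0.0054 over all genes. Of 23 osteoblast genes tested, 18 were lower and 1 was higher, with a median log2 difference of -1.32, a direction that the Sp7 and Ibsp limits favour. Spp1 had a log2 difference of -3.97 ± 0.48 (SE, adjusted p = 8.0e-05, edgeR), and was lower in all 8 libraries. Alpl had -2.86 ± 0.49 and was also lower in all 8 libraries. Transcripts of S phase and mitosis were lower for 14 of 20 genes, with a median of -1.27. Top2a had -1.33 and Mki67 -1.35.

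Of 19 immediate early genes, which rise fast after a stimulus, 15 were higher and none lower, with a median of 1.33. Fos was at 1878 CPM against 674 CPM and Jun at 1410 CPM against 445 CPM. Their summed level in the Prrx1+Runx2+ cells moved with the kit, from 0.171% (WT S1) to 0.476% (Het S3) of UMIs in kit version 3 and from 0.960% (Het S7) to 1.74% (Het S8) in kit version 3.1. Of 42 BMP and TGF-beta genes, 16 were higher and 6 lower, and Tgfb2, a ligand, was higher by 2.28 on the log2 scale. Of 33 Wnt genes, 13 were higher and 8 lower. Lgr4, an R-spondin receptor, was higher by 1.48 ± 0.18 (SE, 8 of 8 libraries) and Wif1, a secreted Wnt inhibitor, had -2.01 ± 0.19 (SE, lower in 8 of 8 libraries). Of 12 hedgehog genes, 4 were higher (Smo, Gli2, Boc and Cdon) and 1 lower (Evc). Of 23 FGF genes, 3 were higher and 8 lower. Of 23 cranial transcription factors, 10 were higher and 4 lower, with Zic4 higher by 1.65 ± 0.20 in 8 of 8 libraries. Of the 16 suture genes that the selection did not use, 6 were higher and 3 lower. Bmp3, a BMP family ligand that opposes bone formation, was higher by 1.40 ± 0.27, and Tnn, which encodes tenascin-W, was lower, at 36.0 CPM against 166 CPM. Of 7 meningeal markers tested 6 were higher and none lower, and of 13 cartilage genes 6 were higher and none lower, with a median of 0.97. Early osteoblasts had no limit on Col2a1, and cartilage genes made up 0.0218% to 2.52% of their UMIs by library. In S5 their median cell was at 1.77%, above the 1.48% of the Prrx1+Runx2+ cells. The largest rises at 50 CPM or more were those of Prg4 (lubricin, 3.70 ± 0.40 higher), Ptgds (3.34 ± 0.48 higher), Gem (76.2 CPM against 9.70 CPM), Gcnt1 (2.88 ± 0.29 higher), Nt5e (2.84 higher) and Gdf5, a ligand of joint and cartilage development (2.81 ± 0.32 higher). Endothelial genes were lower for 9 of 9, with Cdh5 at -6.71 and Flt1 at -6.07. The requirement of 0 UMIs of Pecam1 removes such cells from the Prrx1+Runx2+ set alone.

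Fibroblast-like cells made the second comparison. They had at least 3 detected fibroblast markers, the same Col1a1 and Col2a1 limits and no Ptprc or Pecam1, and were 626 cells in all. Of 10232 genes, 20% were called, 8.99% higher and 11.0% lower (edgeR, as above). All 13 cartilage genes tested were higher in the Prrx1+Runx2+ cells, with a median of 1.02, and Col9a2 was at 1512 CPM against 675 CPM, higher in 8 of 8 libraries. The low-cartilage cells alone had 0.0148% to 0.141% of UMIs in cartilage genes. Cartilage genes still made up 0.0703% to 1.16% of the UMIs of the fibroblast-like cells, by library. Mgp was at 15614 CPM against 8394 CPM, Fn1 at 3540 CPM against 1653 CPM, and Col3a1, a fibrous collagen, at 1279 CPM against 2584 CPM. Of 19 immediate early genes 14 were higher, and of 20 cycling genes 17 were lower with a median of -1.34. Among the genes with the largest rise were Ptgds (3.14 ± 0.17), Mmp9 (1.63 ± 0.27) and Tpd52l1 (1.59 ± 0.23). Foxc1, a transcription factor of skull and meninges, was higher by 0.95 ± 0.12 (8 of 8 libraries) and Sfrp1, a Wnt inhibitor, had -1.94 ± 0.25 (lower in 8 of 8 libraries). Genes of nerve and glia were lower for 7 of 7, and pericyte genes were lower for 9 of 11.

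Cells with Col2a1 at or above 1% of UMIs, 15544 in all, were set beside them after the cartilage genes had been seen, and these limits split Col2a1 itself. The 2 sets differed in 47.8% of 13745 genes (22.4% higher and 25.4% lower in the Prrx1+Runx2+ cells, edgeR). All 13 cartilage genes were lower, with a median of -2.51, a direction that the Col2a1 limits favour. Of 19 immediate early genes 3 were higher and 4 lower, with a median of 0.0071. Col11a1 was at 2331 CPM against 16460 CPM and Matn1 at 317 CPM against 6883 CPM. Of 16 skeletal stem cell genes, 12 were higher, among them Pdgfra by 1.15 ± 0.08 and Pdgfrb by 1.43 ± 0.19, receptors of mesenchymal cells, each in 8 of 8 libraries. Pericyte and smooth muscle markers were higher beside them for 8 of 11 genes and lower for none, with a median of 2.65, and 241 of the 2054 cells had at least 3 of these markers detected. Rgs5 was higher by 3.61 ± 0.23. The part of such cells in these differences was not tested. Mmp13 was higher by 4.71 ± 0.39, Mmp9 by 3.78 ± 0.25 and Cdh11, a mesenchymal cadherin, by 2.22 ± 0.20. Prrx2 was higher by 1.54 ± 0.11 and Meis2 by 1.12 ± 0.08.

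**Figure D3:**
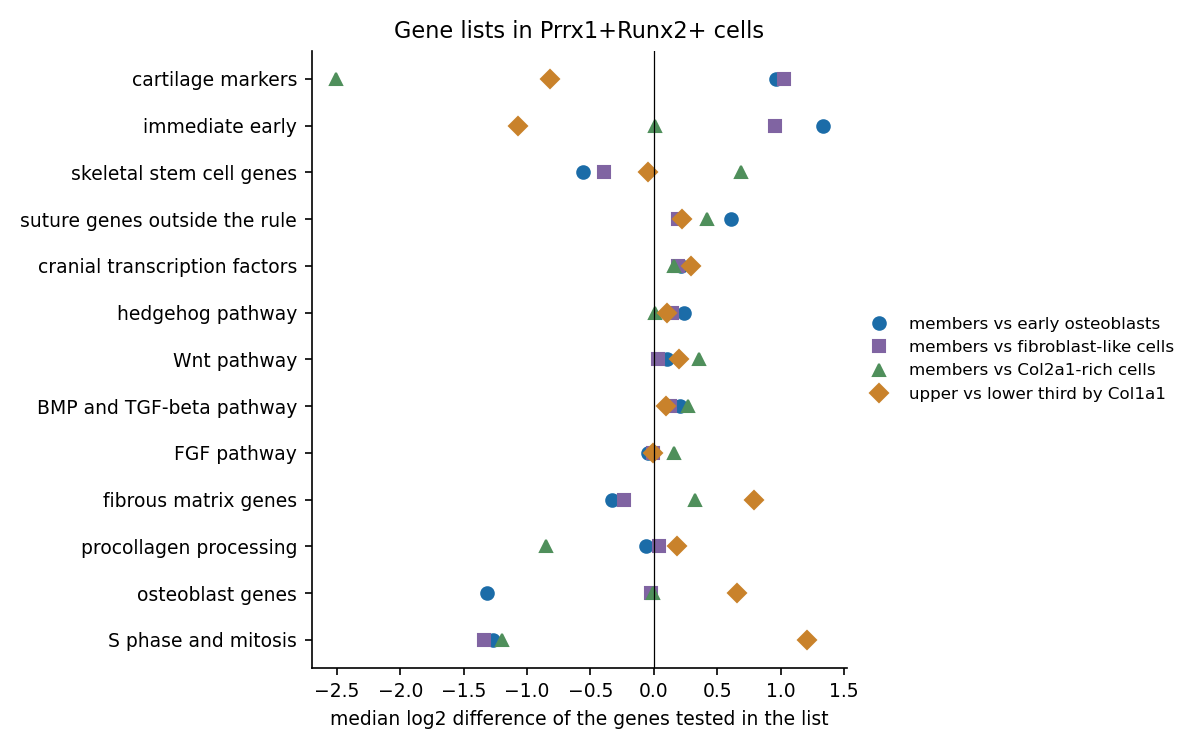
Median log2 difference (horizontal axis) over the tested genes of each list (vertical axis), for Prrx1+Runx2+ cells against early osteoblasts, fibroblast-like cells and Col2a1-rich cells, and for the upper against the lower of 3 equal parts of the cells by Col1a1. Cartilage genes lie at -2.51 against Col2a1-rich cells and at 1.02 against fibroblast-like cells, and cycling genes lie below 0 in the 3 comparisons between classes.

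Within the range of Col1a1 that the selection left, cells of each library were split by Col1a1 into 3 equal parts and the upper compared with the lower. WT S2 had 8 cells in each and was left out, so 7 libraries entered. As a sum over cells, Col1a1 in the Prrx1+Runx2+ cells was below its haematopoietic-like level in S1 to S5 and above it in S6 to S8. In S5 it was at 1239 CPM against 3103 CPM. By the median cell it was below in S5 alone (0.0474% against 0.0573% of UMIs) and above elsewhere, such as 0.264% against 0.0359% in S1. The parts can differ in free RNA as well as in expression, and these cannot be told apart. Of 11020 genes, 11.3% were called, 5.82% higher and 5.46% lower in the upper part (edgeR, as above), with a median of 0.0157. The upper part had higher fibrous and lower cartilage transcripts, and markers of other cell types moved with the split. Of 11 fibroblast markers 7 were higher and none lower, with a median of 2.26, and of 10 pericyte and smooth muscle markers 3 were higher and none lower, with a median of 1.49. Of 17 fibrous matrix genes, 10 were higher and 3 lower. Col3a1 was at 2212 CPM against 316 CPM and Igfbp5 at 1389 CPM against 151 CPM, whereas Mgp was at 10554 CPM against 21163 CPM. Of 13 cartilage genes, 7 were lower and none higher, with a median of -0.82. Matn1 fell by 2.07 ± 0.19 in 7 of 7 libraries. Of 19 osteoblast genes, 9 were higher and 3 lower, with Cdh11 higher by 1.66 ± 0.18. Sfrp4 (5.44 ± 0.49) and Sfrp2 (4.99 ± 0.31), secreted Wnt inhibitors, Hhip, a hedgehog-binding inhibitor (4.64 ± 0.52), and Igfbp3 (4.47 ± 0.37) had the largest rises. Npnt, an integrin ligand, was at 305 CPM against 28.7 CPM. Of 19 immediate early genes, 14 were lower in the upper part, with Fos at 1444 CPM against 2539 CPM. Cycling genes were higher for 5 of 20.

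Between WT and Het, the Prrx1+Runx2+ cells differed in few genes, and most of those that did were lower in Het. Sums of UMIs per library were tested with kit version in the model. Of 11228 genes, 0.125% were called, 1 higher and 13 lower in Het (0.00891% and 0.116%, edgeR), and 807 genes (7.19%) had an unadjusted p under 0.05. The median of all genes was 0.0140. Pappa2, a protease of IGF-binding proteins, was the gene that rose. It was at 43.3 (S1), 16.03 (S2), 47.1 (S5) and 43.3 (S6) CPM in WT and at 44.1 (S3), 52.8 (S4), 87.2 (S7) and 82.2 (S8) CPM in Het. WT and Het did not overlap within either kit version, which held in the same direction for 11.4% of 6877 genes with a mean of at least 20 CPM, and the log2 difference was 0.84 ± 0.14 (adjusted p = 0.0491, edgeR). Its background in haematopoietic-like cells was 1.44 to 8.52 CPM. Pappa2 was called in 1 of the 8 fits that leave out 1 library, with an adjusted p of up to 0.420. Within cartilage-rich cells alone, which held 1702 of its 1766 UMIs, Pappa2 was not called (0.72, adjusted p = 0.278, edgeR). There WT S1 (118 CPM) was above Het S3 and S4 (46.7 and 49.5 CPM), and WT S2 (12.6 CPM) was below them. WT S5 and S6 (49.3 and 44.2 CPM) stayed below Het S7 and S8 (90.0 and 81.4 CPM). The other genes of lowest p that did not overlap within either kit version were Dlk1 (0.83 ± 0.16), Smoc2 (0.98 ± 0.19), Wwp2 (0.71 ± 0.15) and Susd5 (0.78 ± 0.16), with adjusted p of 0.0858, 0.0858, 0.123 and 0.123 in edgeR, so they were not called. Within cartilage-rich cells alone Smoc2 was called (0.73, adjusted p = 0.0491, edgeR). Dlk1, Wwp2 and Susd5 were not called there (adjusted p of 0.533, 0.706 and 0.197, edgeR). In those cells WT S1 was above Het S3 and S4 for Dlk1 (441 CPM against 417 and 274 CPM) and Wwp2 (441 CPM against 411 and 336 CPM), whereas Smoc2 and Susd5 did not overlap. Susd5 was at 0 to 14.6 CPM in low-cartilage cells and 101 to 219 CPM in cartilage-rich cells, and Smoc2 at 9.27 to 58.2 CPM and 37.9 to 306 CPM.

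Limch1, an actin-binding regulator of cell contraction, had the lowest p after Bglap. In the order of the library numbers it was at 425, 417, 20.2 and 20.1 CPM in WT and at 9.36, 61.0, 4.05 and 4.61 CPM in Het, and fell by 2.95 ± 0.32 (log2, adjusted p = 0.00324, edgeR). The gap was widest in kit version 3. In the cells low in cartilage genes it was at 549 and 723 CPM in WT S1 and S2, and among cartilage-rich cells of those libraries no UMI was counted. Mme, a membrane protease of marrow stroma, was at 153, 198, 22.4 and 21.8 CPM in WT and 20.1, 36.6, 10.9 and 6.48 CPM in Het, and fell by 1.74 ± 0.24 (adjusted p = 0.0180, edgeR). Tnfrsf19, a receptor of the TNF family, was at 110, 128, 28.4 and 28.3 CPM in WT and 57.5, 69.1, 14.4 and 11.4 CPM in Het, and fell by 1.02 ± 0.13 (adjusted p = 0.0108, edgeR). Within cartilage-rich cells Mme had an adjusted p of 0.392 and Tnfrsf19 of 0.244, and within the other cells 0.0807 and 0.619 (edgeR), so neither was called in either part. With 1 library left out, Mme and Tnfrsf19 were each called in 6 of 8 fits, with adjusted p of up to 0.0701 and 0.0591 (edgeR). Limch1 was called in the other cells (adjusted p = 0.00919, edgeR) and not in the cartilage-rich cells (adjusted p = 0.919). Limch1, Mme and Tnfrsf19 were above their haematopoietic-like level in all 4 WT libraries, by little in S5 for Limch1 (20.2 CPM against 17.6 CPM) and Tnfrsf19 (28.4 CPM against 26.1 CPM). In Het, Limch1 was below that level in S3 (9.36 CPM against 13.1 CPM) and S7 (4.05 CPM against 7.30 CPM). Tspan7 fell by 1.10 ± 0.18, Dapk2 by 1.85 ± 0.31 and Ctxn1 by 0.98 ± 0.16, and with 1 library left out they were called in 2, 1 and 1 of 8 fits, with adjusted p of up to 0.255, 0.165 and 0.170 (edgeR). Dapk2 was below its haematopoietic-like level in S3, S5 and S8. Within cartilage-rich cells Tspan7 was called (adjusted p = 0.0491, edgeR), and Dapk2 and Ctxn1 were not (0.579 and 0.105). Within the other cells Tspan7 was not called (adjusted p = 0.740, edgeR).

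Bglap, the gene of osteocalcin made by mature osteoblasts, had the lowest p of the genes called. In library order it was at 163, 139, 23.6 and 23.2 CPM in WT and at 24.1, 12.2, 2.91 and 3.41 CPM in Het, and the groups did not overlap within either kit version. The log2 difference was -2.91 ± 0.17 (adjusted p = 4.5e-06, edgeR). In haematopoietic-like cells of the same libraries, which do not make osteocalcin, Bglap was at 301, 522, 74.4 and 26.2 CPM in WT and 192, 49.1, 5.07 and 5.32 CPM in Het. The level in the Prrx1+Runx2+ cells was below that in all 8 libraries. Doublets were kept, so the haematopoietic-like sum can include RNA of osteoblasts. The low-cartilage cells alone were above the haematopoietic-like level in S6 (62.1 CPM against 26.2 CPM), S7 (8.67 CPM against 5.07 CPM) and S8 (5.72 CPM against 5.32 CPM). Bglap was called within cartilage-rich cells and within low-cartilage cells (adjusted p = 0.00833 and 0.00103, edgeR). The part of free RNA in the difference was not tested. Bglap2, a near-identical copy whose reads cannot be told apart with certainty, fell by 2.91 ± 0.46 and was above its haematopoietic-like level in WT S1 and Het S7 alone. With 1 library left out, Bglap2 was called in 2 of 8 fits (adjusted p up to 0.124, edgeR), with log2 values from -3.30 to -2.01. Car2, a carbonic anhydrase of erythroid and osteoclast cells, was higher in haematopoietic-like cells than in the Prrx1+Runx2+ cells of 7 libraries. Aqp1, Kctd12 and Tmsb10 were above their haematopoietic-like level in WT S1 and S2 and below it in the other 6 libraries. Haematopoietic-like cells may make Car2, Aqp1, Kctd12 and Tmsb10 themselves, so that level cannot be read as free RNA for these genes. With 1 library left out, Car2 was called in 4, Aqp1 in 3, Kctd12 in 7 and Tmsb10 in 1 of 8 fits. The Bglap promoter is shown because this gene has the lowest p, as RefSeq gives it for GRCm38.p6 (chr3:88384417-88384716, minus strand, within 300 bases that run from 250 before the start to 50 after it). Capitals mark the RUNX motif TGTGGT on either strand, which 16.9% of 27025 promoters of the same length hold.
Bglap promoter: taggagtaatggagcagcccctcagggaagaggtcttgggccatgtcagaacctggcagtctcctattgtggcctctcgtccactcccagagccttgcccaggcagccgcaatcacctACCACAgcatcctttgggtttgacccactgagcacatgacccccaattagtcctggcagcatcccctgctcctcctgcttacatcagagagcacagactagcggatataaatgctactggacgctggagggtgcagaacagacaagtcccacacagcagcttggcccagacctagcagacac

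**Figure D4:**
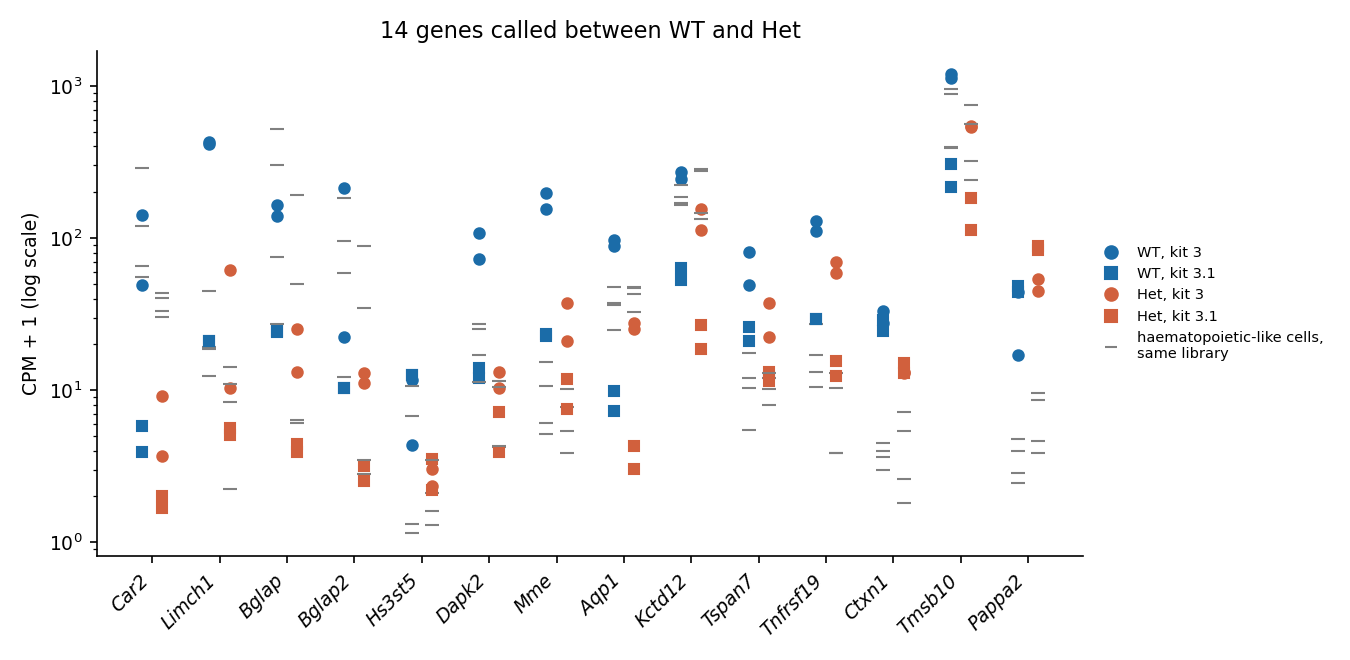
CPM + 1 (log axis) in each library for the 14 genes called between WT and Het in the Prrx1+Runx2+ cells, with colour for genotype and marker shape for kit version. Grey dashes show the same gene in haematopoietic-like cells of the same libraries. Bglap lies below its dash in every library, whereas Pappa2 lies above.

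The share of cartilage-rich cells was 29.4% ± 5.57 in WT and 72.7% ± 3.65 in Het in kit version 3 (SD, n = 2 each, exact permutation p = 0.333, the smallest possible, and 0.286 over all 8 libraries) and was 95.7% ± 0.230 and 96.5% ± 0.434 in kit version 3.1. Beside this, all 13 cartilage genes tested were higher in Het, 11 at an unadjusted p under 0.05 and 0 called, with a median log2 difference of 0.72. Within cartilage-rich cells alone their median was 0.19, a narrowing that the choice of those cells by these same genes favours. In mature osteoblasts 11 of 13 cartilage genes were higher and 0 called, with a median of 0.65. Acan in haematopoietic-like cells was also higher in Het within both kit versions, at 37.7 and 15.1 CPM in WT against 118 and 63.5 CPM in Het for kit version 3, and at 191 and 231 CPM against 255 and 336 CPM for kit version 3.1. The part of free RNA in the cartilage genes was not tested. Osteoblast genes had a median of -0.56, with 2 of 19 called lower (Bglap and Bglap2), and erythroid genes a median of -2.23 with 0 of 6 called. Within cartilage-rich cells, of which WT S2 had 8 and was left out, 6 genes were called and within the other cells 9 were. The part of the cell mixture in the genotype result was not tested further. None of 12 hedgehog, 35 Wnt, 22 FGF, 43 BMP and TGF-beta, 23 cranial transcription factor and 16 suture genes was called (edgeR), and 0, 10, 2, 4, 5 and 4 of them, in that order, had an unadjusted p under 0.05.

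Osteoblasts with abundant collagen bear the mutant chain, so the stress genes that the study discusses were compared side by side. In mature osteoblasts (Col1a1 over 3.5% of UMIs, 1075 cells) 52 of 10033 genes (0.518%) were called between WT and Het, and of 39 integrated stress response genes 17 rose, with a median of 0.93. In the Prrx1+Runx2+ cells 36 of these genes were tested, 0 were called, 4 had an unadjusted p under 0.05, and the median was 0.02 beside 0.01 for all genes. Early osteoblasts likewise had 0 of 8732 genes called between WT and Het (edgeR). Asns, asparagine synthetase, rose by 2.34 ± 0.25 in mature osteoblasts and had 0.01 ± 0.23 in the Prrx1+Runx2+ cells, at 23.7 ± 9.16 CPM in WT and 17.3 ± 7.07 CPM in Het (SD, n = 4 each). Atf5, a stress transcription factor, had 2.03 ± 0.21 and -0.32 ± 0.20, and Eif4ebp1, a translation repressor, 1.44 ± 0.20 and -0.06 ± 0.12. Hspa9, the mitochondrial chaperone mt-HSP70, had 1.09 ± 0.18 and 0.13 ± 0.13. Hspa5, the main chaperone of the endoplasmic reticulum, had 0.49 ± 0.13 and 0.02 ± 0.11. Of 21 genes of the unfolded protein response of the endoplasmic reticulum and 12 of its mitochondrial counterpart, 0 were called in the Prrx1+Runx2+ cells (edgeR), with 0 and 1 at an unadjusted p under 0.05. Of 25 genes tested that the study's text discusses, some of them picked from these very libraries, 1 was called, Bglap.

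Whether the genotype effect itself differed between the 2 classes was tested in one model with the library as a block. Of 11663 genes, 0 were called (0%, edgeR), 424 (3.64%) had an unadjusted p under 0.05, and DESeq2 called 1. With kit version by class in the model, an alternative added after seeing the data, edgeR called 19, 3 higher and 16 lower, and 1076 had an unadjusted p under 0.05. Of the 41 integrated stress response genes tested, 36 had a smaller value in the Prrx1+Runx2+ cells, 20 at an unadjusted p under 0.05, and the median difference was -0.92 beside 0.03 for all genes. The differences were -2.44 ± 0.50 for Asns, -2.34 ± 0.41 for Atf5 and -0.87 ± 0.36 for Hspa9, with adjusted p of 1 in edgeR. Whether single genes differ between the 2 classes thus depended on that term.

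**Figure D5:**
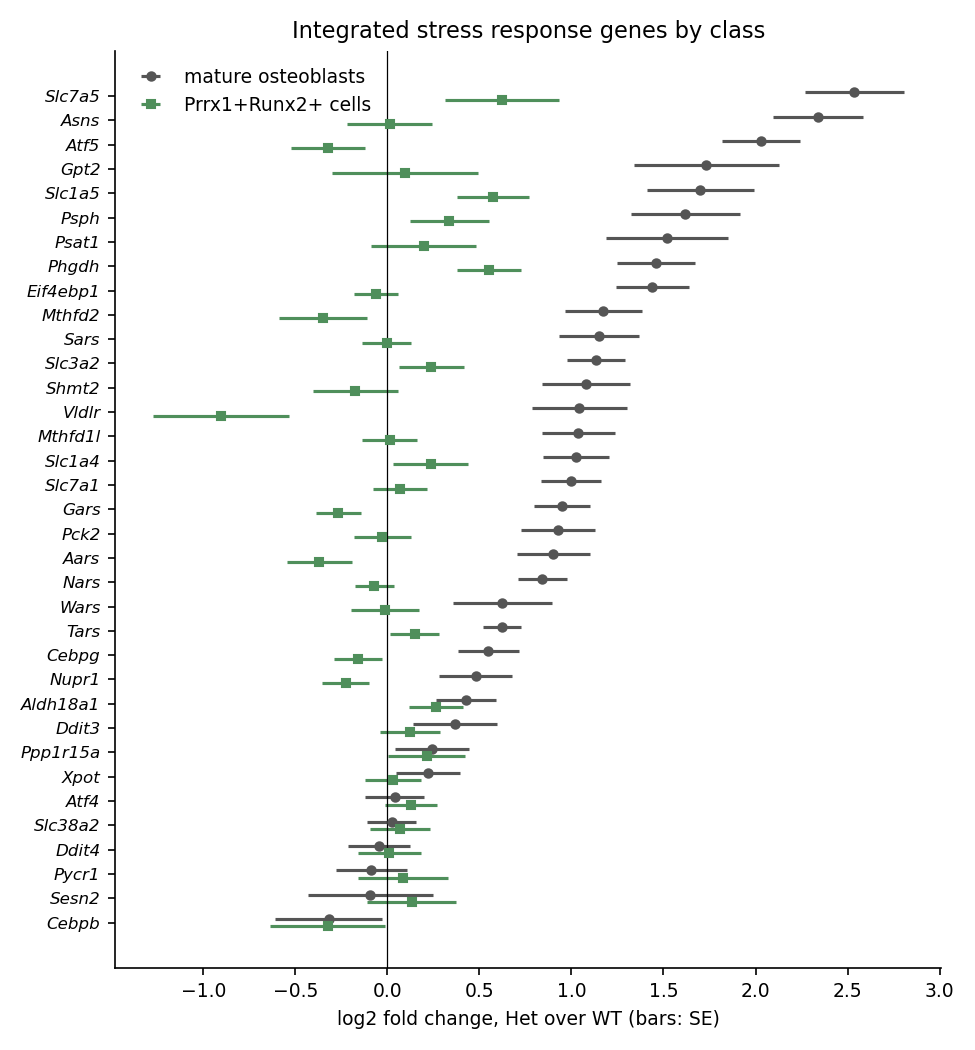
Log2 fold change of Het over WT (horizontal axis, bars are SE) for integrated stress response genes (vertical axis) in mature osteoblasts (circles) and in Prrx1+Runx2+ cells (squares). Asns lies at 2.34 and 0.01, and the medians over the genes tested in each class are 0.93 and 0.02.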

How the data were processed

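UMI counts per gene and cell of 8 libraries were deposited by the authors as raw, unnormalized matrices from Cell Ranger (version 5.0.0 for kit version 3 and 6.0.1 for kit version 3.1, per the file headers; mm10, per the labels). Each count table lists 31053 genes, and 30934 of the identifiers were in GENCODE M21 (GRCm38). Of 68625 barcodes, 46420 passed quality control. Library depth was 30480239 to 85162035 UMIs, and intervals of shares are exact binomial and cover counting error only. Doublets were kept. No annotation of cells was used. The members, gene lists and comparisons were chosen with earlier results of these data known, and the study's own test, by cells, was not used. UMIs were summed per library, libraries with fewer than 10 cells were left out, and edgeR 4.0.16 (limma 3.58.1, R 4.3.3; filterByExpr, TMM, glmQLFit, glmQLFTest) was used with Benjamini-Hochberg adjustment, a gene being called at an adjusted p under 0.05. The SE of a log2 value follows from that value and its F statistic. Shares were compared by exact permutation with scipy 1.17.1. CPM of single libraries are UMIs over all UMIs of the cells, and means are TMM-scaled CPM. Named genes were called genes with a mean of at least 20 CPM and both Het libraries on one side of both WT libraries in each kit version, the largest differences between classes at 50 CPM or more, and list genes by level. Alternatives were DESeq2 1.42.0, relative log expression scaling, no filter, genotype only, a replicate block, 2 or 4 markers, under 5% mitochondrial UMIs, 1 kit version, no deepest cells and leaving out each library. The fits were first tested on simulated counts.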

Additional observations from a re-analysis of the deposited data

Results flagged for a closer look

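Dixon's ratio was taken in 34 groups of 4 libraries, where chance flags about 1 in 20, and 3 library values stood apart from the rest of their group. The values here are TMM-scaled CPM, which differ slightly from the unscaled CPM given above. Pappa2 was at 16.3 CPM in WT S2, where the nearest WT library was at 42.2 CPM. Bglap2 was at 217 CPM in WT S1, against 21.8 CPM in the nearest. Limch1 was at 62.7 CPM in Het S4, against 10.0 CPM in the nearest Het library.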

How the results depend on the processing

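Between WT and Het 14 genes were called, also 14 with relative log expression scaling, 10 with 2 markers and 21 without the deepest cells. The count was 353 without a filter on low counts, 0 with genotype only, 9 with the replicate block, 5 with 4 markers, 2 under 5% mitochondrial UMIs, 183 in kit version 3 only, 8 in kit version 3.1 only, 42 by DESeq2, 6 in cartilage-rich and 9 in low-cartilage cells, the last 2 chosen after seeing the data, and 3 to 60 when 1 library was left out (3 without S5, 60 without S7). Bglap and Limch1 were called in all 8 of the latter fits. Genes higher and lower in Het numbered 142 and 211 without a filter and 67 and 116 in kit version 3 only. They numbered 13 and 29 by DESeq2 and 13 and 47 without S7, and in every other setting at most 1 gene was higher. Replicate numbers did not pair the samples (correlation of deviations -0.048 in kit version 3 and 0.063 in kit version 3.1 over 6877 genes), and the block gave 9 calls. Of the study genes 1 was called, and 0 with genotype only. The genes called against early osteoblasts numbered 1579 to 2815 and against fibroblast-like cells 1522 to 2158 with 1 library left out, and between the upper and lower parts by Col1a1 697 (without S6) to 1520. Col2a1-rich cells in place of fibroblast-like cells gave 6564, and cartilage-rich cells against them 7642. The genotype by class term gave 0, with 3 without a filter, 1 by DESeq2 and 19 with a kit version by class term. The share difference ran from 0.616 to 4.26 points with 1 library left out, and was -0.0386 for low-cartilage cells alone. Leaving out cells with 3 or more markers of another class left 39 cells and none in kit version 3.1, so no genes could be fitted. The cause of these changes was not tested. The genotype values that include kit version 3 rest on 79 WT cells there.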

Other observations

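Of 16 skeletal stem cell genes tested against Col2a1-rich cells, 12 were higher in the Prrx1+Runx2+ cells, whereas against early osteoblasts 2 of 15 were higher and 7 lower. Cxcl12, a chemokine of marrow stroma, was at 211 CPM against 434 CPM in early osteoblasts and at 183 CPM against 11.1 CPM in Col2a1-rich cells. By library it was at 0.0703% and 0.0791% of UMIs in WT S1 and S2 and at 0.00119% to 0.00308% in the other 6 libraries.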
